A study of Mus musculus with 9 samples.

Results

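Transcripts of 48 genes of mitosis, the kinetochore and cytokinesis were followed in the heart ventricle of newborn mice after injury. The members were listed by symbol for their place in cell division, and all 48 were found by gene identifier among the 14479 genes of the deposited expression matrix. The rule uses no measured value, although the list was drawn up with earlier results of these data known. They were ordered along 7 steps of division, namely mitotic entry, the centrosome and spindle, the centromere and kinetochore, the chromosomal passenger complex, the spindle checkpoint with anaphase onset, chromosome condensation, and the central spindle with cytokinesis. RNA came from CD-1 mice, an outbred stock, in 3 groups of 3 libraries: apical resection with left vagotomy (cutting the left vagus nerve), apical resection alone, and sham surgery. Per the labels, the operation was on postnatal day 1 and hearts were taken on postnatal day 2. The apical end of the ventricle was dissected, which in the resected groups is the end that had been cut. Whether a library holds 1 pup or a pool, and whether the libraries of a group are separate animals, is not in the labels, so p-values measure the spread between these libraries, which may be technical.

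Entry into mitosis is driven by Cdk1 bound to cyclins. Microtubules then attach to kinetochores built on the centromeres, and a checkpoint holds back anaphase until every kinetochore is attached. The central spindle then places the contractile ring that separates the daughter cells. Most of these genes are transcribed in the later part of the cell cycle, so in a tissue their transcripts come largely from cycling cells. In the mouse, heart muscle cells still divide around birth and largely stop within days.

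Expression is given as FPKM, fragments scaled for transcript length and library size. A mitochondrial tRNA, mt-Ta, took 6.48 to 9.53% of the summed FPKM with vagotomy, 15.6 to 40.8% after resection and 18.4 to 37.6% after sham surgery, while the median gene lay at 7.52 to 8.29 FPKM in the 9 libraries. With libraries rescaled by quantiles, upper quartile or median, 19 or 20 members fell with vagotomy against sham, against 19 as deposited. The third vagotomy library stood apart: 740 genes were listed at 0 in it, against 203 to 311 in the other 8 libraries. In it 2 members, Aurka and Foxm1, were listed at 0, and it held the lowest value of all 9 libraries for 29 of the 48 members. The second sham library held the highest value for 37 of the 48 members. A further 11 genes were listed at 0 in all 3 vagotomy libraries although they exceeded 5 FPKM in each of the other 6 libraries; Myh6 and Actc1, which encode the main heart myosin and actin, were among them. At 0 in a file without read counts a gene may be unexpressed or its estimate may have failed, and these cannot be told apart here.

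The promoters of the members carried letters that were rarer elsewhere. Late cell cycle genes are known for a cell cycle homology region (CHR), bound by the MuvB complexes, and for CCAAT boxes, bound by NF-Y, upstream of it. RefSeq promoter windows of 250 bases before to 50 bases after the start (assembly GRCm38.p6) were matched by symbol for 40 of the 48 members. Ccna2, Cdc25c, Foxm1, Tpx2, Aurkb, Incenp, Smc4 and Kif20a were not matched. The CHR letters TTTGAA or TTTAAA were found on either strand, from 100 bases before to 50 bases after the start, in 30 of the 40 members (75.0%), against 14.7% of all 27025 genes with a window. CCAAT was found on either strand of the whole window in 30 of the 40 members (75.0%), against 41.1% of all genes. Both were present in 27 of the 40 (67.5%), against 5.78% of all genes. By contrast, the E2F letters TTTGGCGC, TTTCCCGC, TTTGGCGG or TTCCCGCC, some of which overlap one another, were found in 2 of the 40 members (5.0%) and in 4.22% of all genes. Among the 9240 tested genes with a window, 9.18% held the CHR letters near the start, 3.97% these with CCAAT, and 7.95% the E2F letters. Other mitosis genes, 82 with a window, lay between: 39.0% held the CHR letters near the start and 29.3% these with CCAAT. The E2F letters were in 23.2% of those 82, a larger share than in the members. In a list of 39 DNA replication genes, 31 had a window. Among those 31 genes, 19 (61.3%) held the E2F letters and 5 (16.1%) the CHR letters near the start. These are matches of letters in a window, not measured binding sites, and the shares were not tested.

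Of the promoters, 8 are shown because they belong to members on which the results turn. The first 5 had lower transcripts than after sham surgery in both operated groups. Then come Cdc20 and Cdca8, higher with vagotomy than after resection, and Bub3, the 1 member not lower after resection than after sham surgery. Each stretch runs 5′ to 3′ on the strand of the gene over the 140 bases that end just before the RefSeq start, and capitals mark the CHR letters and CCAAT boxes in either orientation (TTCAAA and ATTGG are the reverse complements). On GRCm38.p6 they lie at chr10:69352913-69353052 (Cdk1, minus strand), chr13:100786487-100786626 (Ccnb1, minus), chr11:99024190-99024329 (Top2a, minus), chr5:30666746-30666885 (Cenpa, plus) and chr19:37376242-37376381 (Kif11, plus). The last 3 lie at chr4:118437344-118437483 (Cdc20, minus), chr4:124936918-124937057 (Cdca8, minus) and chr7:131560230-131560369 (Bub3, plus). RefSeq starts can differ from the gene spans of the GENCODE annotation. There Cdca8 starts at 124939311 on the minus strand and Bub3 at 131560222, so both stretches lie inside the annotated gene. Those of Cdk1, Ccnb1, Cenpa and Cdc20 do so in part.
Cdk1: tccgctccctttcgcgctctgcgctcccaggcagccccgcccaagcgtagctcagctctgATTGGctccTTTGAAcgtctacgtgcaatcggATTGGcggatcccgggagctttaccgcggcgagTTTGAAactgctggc
Ccnb1: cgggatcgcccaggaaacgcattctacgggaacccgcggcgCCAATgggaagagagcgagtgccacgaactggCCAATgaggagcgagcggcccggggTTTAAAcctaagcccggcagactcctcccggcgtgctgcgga
Top2a: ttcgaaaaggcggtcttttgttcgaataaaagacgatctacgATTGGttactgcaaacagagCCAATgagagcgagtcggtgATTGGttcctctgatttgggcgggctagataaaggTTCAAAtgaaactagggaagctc
Cenpa: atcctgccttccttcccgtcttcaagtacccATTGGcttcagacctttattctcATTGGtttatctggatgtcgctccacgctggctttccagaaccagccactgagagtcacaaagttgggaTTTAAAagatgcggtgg
Kif11: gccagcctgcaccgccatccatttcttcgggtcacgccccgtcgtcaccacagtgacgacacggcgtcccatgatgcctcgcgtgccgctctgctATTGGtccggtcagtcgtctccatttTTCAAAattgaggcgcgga
Cdc20: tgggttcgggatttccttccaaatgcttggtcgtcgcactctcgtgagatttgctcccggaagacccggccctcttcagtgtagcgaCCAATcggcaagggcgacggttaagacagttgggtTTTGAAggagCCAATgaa
Cdca8: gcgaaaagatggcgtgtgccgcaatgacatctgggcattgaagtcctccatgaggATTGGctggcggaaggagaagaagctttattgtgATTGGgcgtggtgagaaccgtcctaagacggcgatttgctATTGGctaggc
Bub3: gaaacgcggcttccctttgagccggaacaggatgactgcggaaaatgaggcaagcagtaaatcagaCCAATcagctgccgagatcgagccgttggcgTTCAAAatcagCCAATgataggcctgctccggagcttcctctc
The stretches shown of Bub3 and of Cdc20, itself below sham after resection, held the same 2 kinds of letters as those of the first 5. Bub3 has a second RefSeq start further downstream, and the stretch shown is from the start with these letters nearer. Before the second start both kinds lay more than 140 bases away, so a stretch taken there would show neither. The similarity of Bub3 to the first 5 thus depends on which start is used. The stretch of Cdca8 held 3 CCAAT boxes with its CHR letters after the start, outside what is shown. Bub1, which with vagotomy had the smallest share of its sham mean of all members, had 2 CCAAT boxes and no CHR letters anywhere in its window. Cdc25b too had CCAAT without CHR letters. Nusap1 and Mad2l1, which fell with vagotomy against sham, held neither kind of letters in their windows, and nor did Nuf2 and Pttg1. The other matched members, 34 of the 40, held CHR letters somewhere in the window.

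**Figure D1:**
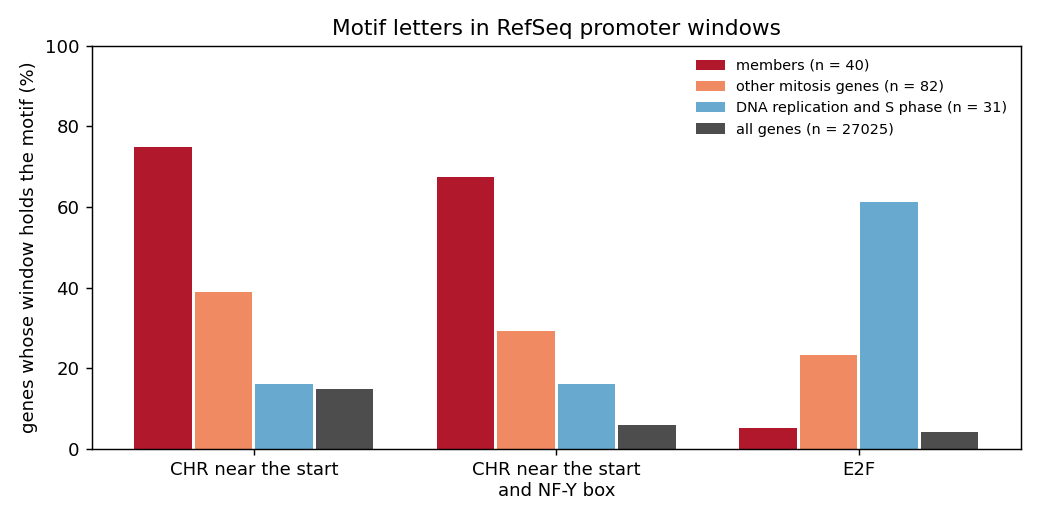
Share of genes (%) whose RefSeq promoter window holds the CHR letters near the start, these together with a CCAAT (NF-Y) box anywhere in the window, or E2F letters, for the members, other mitosis genes, DNA replication genes and all genes with a window. The CHR letters stood in 75.0% of the members with a window and the E2F letters in 5.0%, while the DNA replication genes had 16.1% and 61.3%. The other mitosis genes had 39.0% and 23.2%.

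After resection, transcripts of nearly every member were lower than after sham surgery. The mean was lower for 47 of the 48 members, the exception being Bub3, and the median log2 change was -0.85, against -0.01 over all 13249 genes tested. In 31 members all 3 resected libraries lay below all 3 sham libraries, which 4.45% of tested genes did. In none did all 3 lie above, which 6.36% of tested genes did. No single member passed the limma test at an adjusted p of 0.05, while 30 had an unadjusted p below 0.05, all of them lower, against 2.21% of tested genes lower and 3.68% higher. That test called 1 gene lower in the whole comparison (0.00755% of those tested) and 38 higher (0.287%). In the authors' deposited table, made with Cuffdiff, 34 of the 48 members were called lower after resection at a q of 0.05 and 0 higher, against 1.93% and 4.18% of the 14011 genes tested there. With libraries weighted by their scatter, limma called 19 members lower, and 417 of all tested genes in either direction, against 39 without weights. In bulk tissue, fewer dividing cells and less of these transcripts per cell cannot be told apart.

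After resection with vagotomy the members were again lower than after sham surgery, and some passed the test. In that comparison 19 of the 48 members fell and 1, Cdca8, rose, against 4.26% and 5.81% of all tested genes. The mean was lower for 44 members, with a median log2 change of -1.03, against 0.03 over all tested genes. In 28 members all 3 vagotomy libraries lay below all 3 sham libraries (17.0% of tested genes), and in 2, Cdca8 and Bub3, all lay above (19.7%). The count rested on the sham libraries: without the second or without the third, 1 member, Cenpa, was called. Calls over all 13249 tested genes fell too, from 1334 to 100 without the second and 119 without the third. They fell to 533 without the third vagotomy library. Without the third vagotomy library 10 members fell and 1 rose; Cenpa, Top2a, Bub1, Kif11, Tpx2, Nusap1, Mad2l1, Foxm1, Aurka and Ect2 were the 10, and Ccnb1, Anln, Kif4, Ncapg, Ttk, Spc25, Ccna2, Cdk1 and Prc1 no longer passed (adjusted p = 0.057 to 0.104). In 25 members, all 6 libraries with resection lay below all 3 sham libraries, as did 1.95% of tested genes. A test among the 3 groups together (limma F-test) called 9 members, against 5.89% of tested genes: Cenpa, Top2a, Bub1, Kif11, Tpx2, Cdca8, Nusap1, Mad2l1 and Ccnb1. Without the second or the third sham library that test called 0 members, and without the second vagotomy library 2. Without the third vagotomy library, or the second or the third resected library, it called 5. How many of all tested genes it called with a library left out is not given. Both of these comparisons use the same 3 sham libraries.

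**Figure D2:**
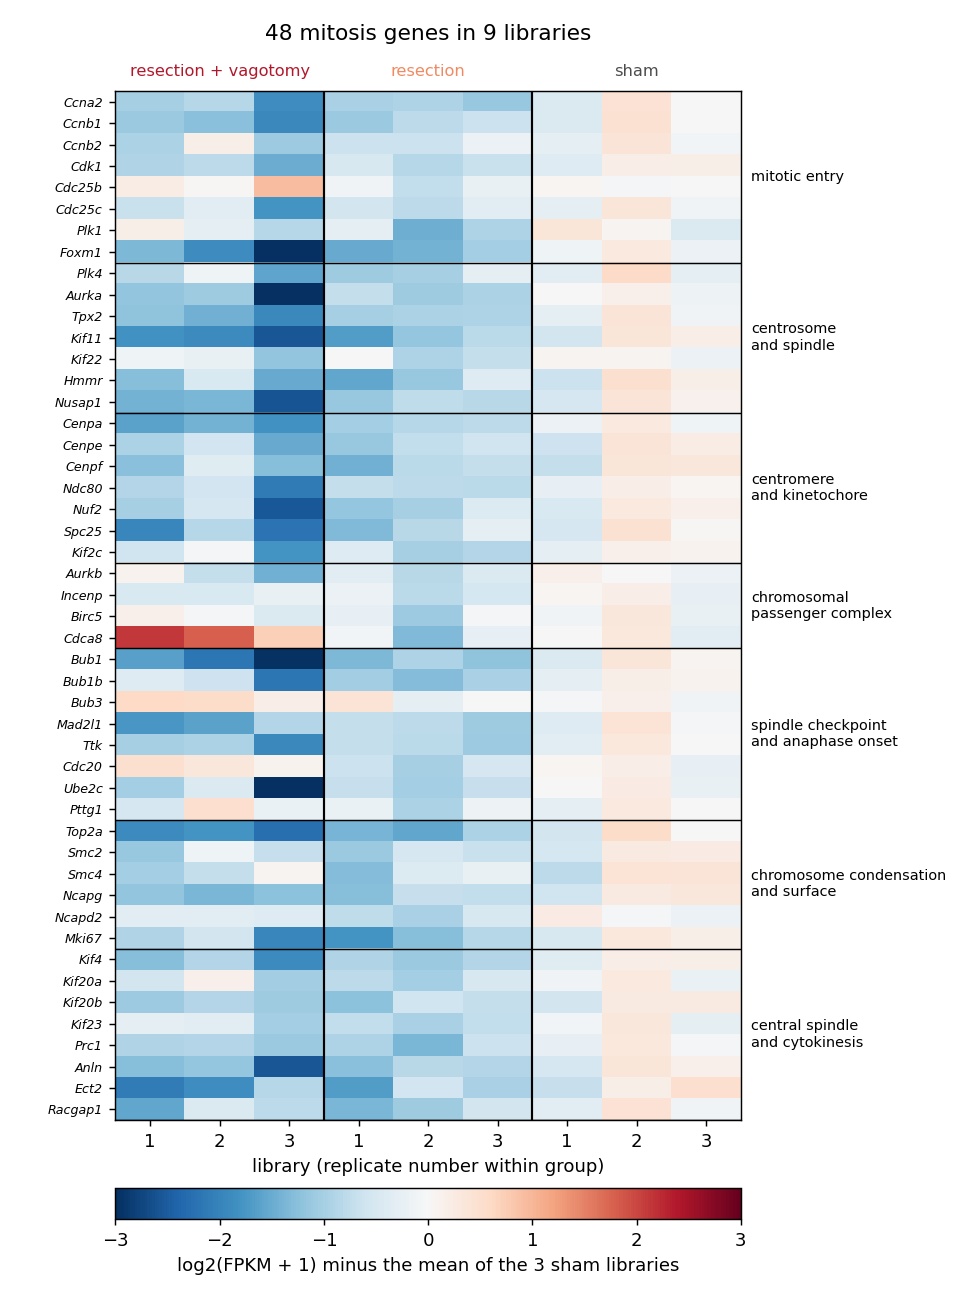
Level of the 48 members in each library, as the difference in log2(FPKM + 1) from the sham mean, with rows ordered by step and columns by group; the colour scale ends at 3 in each direction and lower values take its end colour. The vagotomy and resection columns are mostly blue (below sham), with Cdca8 red in the 3 vagotomy libraries and the third vagotomy library the bluest column.

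Among the genes of mitotic entry, all 8 had lower means after resection, and 4 of the 8 (Ccnb1, Foxm1, Ccna2 and Cdk1) fell after resection with vagotomy against sham. Cdk1, the kinase that drives entry into mitosis, had the highest level of the step. It stood at 21.4, 23.3 and 13.9 FPKM after resection with vagotomy, 29.1, 22.3 and 25.4 FPKM after resection, and 30.9, 47.2 and 46.3 FPKM after sham surgery. All 6 libraries with resection lay below the 3 sham libraries. The log2 change was -1.06 ± 0.28 (SE) with vagotomy against sham (adjusted p = 0.041) and -0.66 ± 0.28 for resection against sham (adjusted p = 0.775). Its partner Ccnb1, cyclin B1, had 5.59, 5.01 and 2.73 FPKM with vagotomy, 5.602, 7.28 and 8.12 FPKM after resection, and 9.59, 18.6 and 13.2 FPKM after sham surgery. The 3 groups did not overlap: every vagotomy library lay below every resected one, and these below every sham one. With vagotomy Ccnb1 averaged 32.2% of its sham mean (log2 change -1.44 ± 0.31, adjusted p = 0.0223), and after resection 50.7% (-0.85 ± 0.31, adjusted p = 0.556).

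Ccna2, cyclin A2, which acts in S phase and at entry, had 14.4, 15.8 and 7.33 FPKM with vagotomy, 14.6, 14.9 and 12.8 FPKM after resection, and 21.7, 40.3 and 29.0 FPKM after sham surgery. It fell with vagotomy against sham (log2 change -1.24 ± 0.32, adjusted p = 0.0389) and was at -1.01 ± 0.32 after resection (adjusted p = 0.421). The authors' deposited table called Ccna2, Ccnb1, Cdk1, Plk1 and Foxm1 lower after resection, at q values of 0.0016 to 0.022. Foxm1, a transcription factor that activates late cell cycle genes, had 5.23, 3.29 and 0 FPKM with vagotomy, 4.57, 4.94 and 6.86 FPKM after resection, and 13.7, 18.4 and 13.2 FPKM after sham surgery. Its log2 change with vagotomy against sham was -2.41 ± 0.55 (adjusted p = 0.0272), with the library listed at 0 in the fit, and -1.62 without that library (adjusted p = 0.0282). Plk1, a kinase that promotes entry and spindle assembly, did not separate the groups. It had 11.3, 7.89 and 4.97 FPKM with vagotomy, 7.79, 2.90 and 4.70 FPKM after resection, and 12.9, 10.5 and 7.01 FPKM after sham surgery, so all groups overlapped. Its log2 change was -0.32 ± 0.37 with vagotomy against sham (adjusted p = 0.597) and -0.90 ± 0.37 after resection (adjusted p = 0.734). The other members of the step, Ccnb2 and the phosphatases Cdc25b and Cdc25c that activate Cdk1, ranged from -0.94 to 0.40 with vagotomy against sham and from -0.55 to -0.36 after resection, none past the threshold.

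The centrosome and spindle genes were lower as well: all 7 had lower means in both operated groups, and Kif11, Tpx2, Nusap1 and Aurka fell with vagotomy against sham. Kif11, the kinesin that pushes the spindle poles apart, had 3.98, 3.68 and 1.95 FPKM with vagotomy, 4.43, 6.87 and 9.04 FPKM after resection, and 10.9, 21.4 and 18.97 FPKM after sham surgery. The 3 groups did not overlap. Kif11 averaged 18.7% of its sham mean with vagotomy (log2 change -2.09 ± 0.34, adjusted p = 0.0101) and 39.6% after resection (-1.21 ± 0.34, adjusted p = 0.305). Tpx2, which activates Aurora A on the spindle, had the smallest p of the step after resection. It had 4.51, 3.73 and 2.38 FPKM with vagotomy, 5.42, 5.68 and 5.74 FPKM after resection, and 9.63, 15.7 and 10.9 FPKM after sham surgery, again in 3 ranges that did not overlap. The log2 changes against sham were -1.53 ± 0.26 with vagotomy (adjusted p = 0.0119) and -0.96 ± 0.26 after resection (adjusted p = 0.302).

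Aurka, the Aurora A kinase of the spindle poles, had 2.50, 2.78 and 0 FPKM with vagotomy, 3.87, 2.82 and 3.10 FPKM after resection, and 6.95, 7.89 and 6.12 FPKM after sham surgery. The log2 change with vagotomy against sham was -1.75 ± 0.44 (adjusted p = 0.037), again with 1 library listed at 0, and -1.13 without it (adjusted p = 0.0396). Nusap1, which bundles spindle microtubules, had 2.22, 2.32 and 0.423 FPKM with vagotomy, 2.89, 4.07 and 3.86 FPKM after resection, and 5.05, 10.1 and 8.39 FPKM after sham surgery. Against sham it fell with vagotomy (-1.79 ± 0.37, adjusted p = 0.0189), and the 3 groups did not overlap. Nusap1 shares its deposited locus with Oip5, a centromere gene, which had 2.98 to 4.40 FPKM with vagotomy, 4.67 to 6.28 FPKM after resection and 5.20 to 13.9 FPKM after sham surgery. The highest level of the step was that of Plk4, the kinase that starts centriole duplication. It had 7.95, 13.5 and 4.31 FPKM with vagotomy, 6.64, 7.01 and 12.3 FPKM after resection, and 11.8, 22.8 and 12.2 FPKM after sham surgery, and each operated group overlapped sham. Its log2 changes against sham were -0.85 ± 0.40 with vagotomy (adjusted p = 0.183) and -0.77 ± 0.40 after resection (adjusted p = 1). Kif22 and Hmmr overlapped sham too. The authors' deposited table called 6 of the 7 lower after resection, all but Kif22.

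All 7 centromere and kinetochore genes had lower means in both operated groups, and all 7 were called lower after resection in the authors' deposited table, at q values of 0.0016 to 0.045. Cenpa, the histone H3 variant that marks centromeres, had the smallest adjusted p of any member with vagotomy against sham. It had 8.37, 9.73 and 7.11 FPKM with vagotomy, 13.1, 14.8 and 15.6 FPKM after resection, and 24.5, 34.1 and 25.3 FPKM after sham surgery. The libraries of each group lay close together and the 3 groups did not overlap. Cenpa averaged 30.0% of its sham mean with vagotomy (log2 change -1.62 ± 0.23, adjusted p = 0.00599) and 51.8% after resection (-0.89 ± 0.23, adjusted p = 0.251). Under all 22 alternative settings it stayed past the threshold with vagotomy against sham, at adjusted p from 7.44e-05 to 0.0499.

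Spc25, a subunit of the Ndc80 complex that binds microtubules, had 2.90, 7.41 and 2.27 FPKM with vagotomy, 5.10, 7.58 and 11.6 FPKM after resection, and 9.77, 20.03 and 14.5 FPKM after sham surgery. With vagotomy it fell against sham (-1.68 ± 0.41, adjusted p = 0.0334), and its resected libraries overlapped both other groups (-0.81 ± 0.41 against sham, adjusted p = 0.996). The remaining members of the step were Ndc80 and Nuf2 of the same complex, the motor Cenpe, the kinetochore protein Cenpf and the microtubule depolymerase Kif2c. Their changes ranged from -1.34 to -0.82 with vagotomy against sham, the smallest adjusted p being 0.0636, and from -0.99 to -0.76 after resection.

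The chromosomal passenger complex carries Aurora B to chromosomes and then to the central spindle. None of its 4 members was called lower after resection in the authors' deposited table, and none fell with vagotomy against sham. Birc5 (survivin), which targets the complex to centromeres and had its highest level, stood at 14.7, 12.7 and 9.45 FPKM with vagotomy, 10.9, 5.57 and 12.6 FPKM after resection, and 12.01, 16.8 and 11.1 FPKM after sham surgery. Its groups overlapped throughout, and its log2 changes against sham were -0.11 ± 0.32 with vagotomy (adjusted p = 0.857) and -0.46 ± 0.32 after resection (adjusted p = 1). The scaffold Incenp had 5.05, 4.999 and 6.07 FPKM with vagotomy, 6.29, 3.71 and 4.71 FPKM after resection, and 7.62, 8.45 and 6.01 FPKM after sham surgery. Incenp was at -0.38 ± 0.25 with vagotomy against sham (adjusted p = 0.318) and at -0.51 ± 0.25 after resection (adjusted p = 0.919). Aurkb, the kinase itself, had 10.1, 5.31 and 2.77 FPKM with vagotomy, 7.14, 4.83 and 6.66 FPKM after resection, and 10.6, 9.34 and 8.21 FPKM after sham surgery. For Aurkb all resected libraries lay below all sham libraries, but the change of -0.53 ± 0.36 had an adjusted p of 1. The difference between this step and the others was not tested.

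Cdca8 (borealin), the fourth subunit of that complex, was the 1 member that rose with vagotomy against sham. It had 20.6, 16.2 and 7.21 FPKM with vagotomy, 3.70, 0.992 and 3.20 FPKM after resection, and 3.99, 5.22 and 3.03 FPKM after sham surgery. Every vagotomy library lay above all 6 others, while the resected and sham libraries overlapped. Cdca8 averaged 360% of its sham mean and 558% of its resected mean with vagotomy. The log2 change was 2.09 ± 0.42 with vagotomy against resection (adjusted p = 0.0337) and 1.54 ± 0.42 against sham (adjusted p = 0.0458). The authors' deposited table also called it higher with vagotomy than after resection, at 14.6 against 2.62 FPKM (q = 0.00099). Over 21 alternative settings its change against resection kept its sign, at 1.32 to 2.504, and stayed past the threshold in 14, with adjusted p from 0.0136 to 0.119. Without vagotomy replicate 1 or 2, resection replicate 2 or 3, or sham replicate 2 or 3, or with only the 6 libraries compared, it did not pass. Against sham it passed in 11 of 21 settings, with adjusted p from 0.00096 to 0.173, and did not pass under quantile, upper-quartile or median scaling. Cdca8 shares its deposited locus (chr4:124918465-124944656, GRCm38) with 9930104L06Rik, which had 2.24, 2.69 and 5.35 FPKM with vagotomy, 1.81, 1.99 and 5.41 FPKM after resection, and 1.72, 1.43 and 2.66 FPKM after sham surgery. The part of the shared locus in the values of Cdca8 was not tested.

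**Figure D3:**
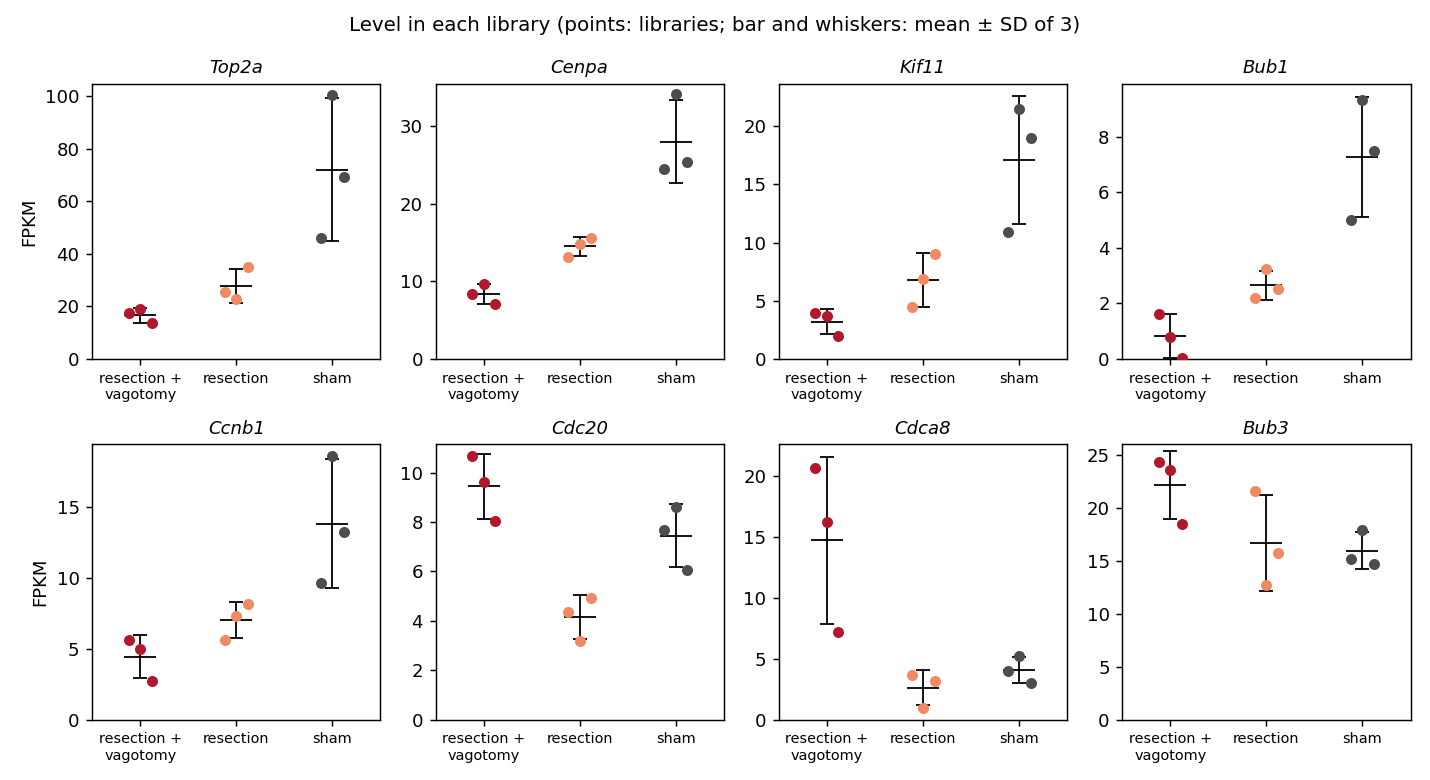
FPKM of 8 members in each library (points) with the mean ± SD of 3 libraries per group (bars). Top2a, Cenpa, Kif11, Bub1 and Ccnb1 step up across the vagotomy, resection and sham groups without overlap between groups, whereas Cdc20 and Cdca8 are higher with vagotomy than after resection and Bub3 overlaps sham after resection.

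Of the 8 genes of the spindle checkpoint and anaphase onset, 3 fell with vagotomy against sham, while the vagotomy means of Cdc20 and Bub3 were above the sham means without passing the test. Bub1, a checkpoint kinase at kinetochores, had 1.61, 0.810 and 0.0404 FPKM with vagotomy, 2.20, 3.24 and 2.52 FPKM after resection, and 5.02, 9.33 and 7.49 FPKM after sham surgery. The groups did not overlap, although the vagotomy values lay near the bottom of the scale. Bub1 averaged 11.3% of its sham mean with vagotomy (log2 change -2.25 ± 0.36, adjusted p = 0.00929) and 36.4% after resection (-1.16 ± 0.36, adjusted p = 0.392). Mad2l1, which with Cdc20 forms the inhibitor that the checkpoint makes, had the highest level of the step. It stood at 11.9, 13.1 and 22.3 FPKM with vagotomy, 25.1, 23.9 and 19.5 FPKM after resection, and 32.2, 56.4 and 41.0 FPKM after sham surgery. Both operated groups lay below sham, and the log2 changes were -1.41 ± 0.30 with vagotomy (adjusted p = 0.0222) and -0.86 ± 0.30 after resection (adjusted p = 0.523). Here the third vagotomy library was the highest of its group. Ttk (Mps1), the kinase that starts the checkpoint, had 2.59, 2.70 and 0.864 FPKM with vagotomy, 3.36, 3.10 and 2.39 FPKM after resection, and 4.70, 7.92 and 6.26 FPKM after sham surgery. Both operated groups lay below sham, and Ttk fell with vagotomy (-1.30 ± 0.32, adjusted p = 0.0325).

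Cdc20, the activator of the anaphase-promoting complex that the checkpoint holds back, had 10.7, 9.62 and 8.05 FPKM with vagotomy, 4.37, 3.18 and 4.93 FPKM after resection, and 7.67, 8.61 and 6.07 FPKM after sham surgery. The resected libraries lay below all others, and the vagotomy libraries overlapped sham. It rose with vagotomy against resection (log2 change 1.02 ± 0.24, adjusted p = 0.0465). Over 21 alternative settings this change stayed positive, at 0.66 to 1.18, and passed the threshold in 5, with adjusted p from 0.0362 to 0.163, and leaving out any 1 library ended the call. The authors' deposited table did not call it, at 9.40 FPKM with vagotomy against 4.14 FPKM after resection (q = 0.271). Its change was 0.31 ± 0.24 with vagotomy against sham (adjusted p = 0.415) and -0.71 ± 0.24 after resection (adjusted p = 0.467). Elovl1, a fatty acid elongase that shares the deposited locus of Cdc20, had 20.4 to 23.2 FPKM with vagotomy, 23.7 to 25.4 FPKM after resection and 18.7 to 20.9 FPKM after sham surgery.

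Bub3, which binds Bub1 and brings it to kinetochores, had 24.4, 23.6 and 18.5 FPKM with vagotomy, 21.6, 12.8 and 15.7 FPKM after resection, and 15.2, 17.9 and 14.7 FPKM after sham surgery. With vagotomy all 3 libraries lay above sham (log2 change 0.44 ± 0.25, adjusted p = 0.265), and after resection the groups overlapped (0.04 ± 0.25, adjusted p = 1). The deposited locus of Bub3 spans 42 genes, so its reads may be shared with neighbours. The rest of the step comprised Bub1b (BubR1), a checkpoint protein, the anaphase-promoting complex's partner enzyme Ube2c, and the securin Pttg1. Their changes ranged from -1.54 to -0.07 with vagotomy against sham and from -1.1 to -0.44 after resection, none past the threshold.

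Among the genes of chromosome condensation and surface, all 6 had lower means in both operated groups, and Top2a and Ncapg fell with vagotomy against sham. Top2a, the topoisomerase that untangles sister chromatids, had the highest mean of all 48 members and the smallest p of any after resection. It stood at 17.4, 19.02 and 13.5 FPKM with vagotomy, 25.6, 22.7 and 35.0 FPKM after resection, and 46.2, 100.3 and 69.1 FPKM after sham surgery. No library of one group reached the range of the next. Top2a averaged 23.2% of its sham mean with vagotomy (log2 change -1.99 ± 0.32, adjusted p = 0.00929) and 38.6% after resection (-1.30 ± 0.32, adjusted p = 0.196). Ncapg, a subunit of condensin I, had 3.65, 3.09 and 3.51 FPKM with vagotomy, 3.38, 5.61 and 5.35 FPKM after resection, and 6.04, 11.7 and 12.3 FPKM after sham surgery. Both operated groups lay below sham, and the change with vagotomy was -1.26 ± 0.30 (adjusted p = 0.0291). Mki67, the Ki-67 protein that coats mitotic chromosomes, had 4.91, 6.62 and 1.87 FPKM with vagotomy, 2.21, 3.58 and 5.13 FPKM after resection, and 6.91, 12.8 and 11.6 FPKM after sham surgery. All 6 libraries with resection lay below sham, and the 2 operated groups overlapped. Its change was -1.13 ± 0.40 with vagotomy (adjusted p = 0.0901) and -1.31 ± 0.40 after resection (adjusted p = 0.38). The condensin subunits Smc2, Smc4 and Ncapd2 ranged from -0.65 to -0.36 with vagotomy against sham and from -0.77 to -0.64 after resection.

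The 8 genes of the central spindle and cytokinesis all had lower means after resection. All had unadjusted p below 0.05, 7 had all resected libraries below all sham libraries, and their log2 changes lay between -1.08 and -0.76. The authors' deposited table called 7 of the 8 lower, all but Kif20a. Prc1, which bundles the central spindle's microtubules, had the smallest p of the step, with 13.8, 14.3 and 12.02 FPKM with vagotomy, 13.6, 9.85 and 16.7 FPKM after resection, and 22.4, 33.7 and 25.9 FPKM after sham surgery. The operated groups overlapped each other and lay wholly below sham, at 49.0% of the sham mean in both. The log2 change was -0.96 ± 0.26 with vagotomy (adjusted p = 0.0443) and -0.99 ± 0.26 after resection (adjusted p = 0.265). Racgap1, which forms centralspindlin with Kif23, had the highest level, with 15.9, 36.0 and 27.9 FPKM with vagotomy, 18.1, 22.6 and 33.0 FPKM after resection, and 38.5, 66.01 and 45.2 FPKM after sham surgery. It lay below sham in all 6 operated libraries, at -0.92 ± 0.35 with vagotomy (adjusted p = 0.115) and -1.0 ± 0.35 after resection (adjusted p = 0.532).

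Anln (anillin), a scaffold of the contractile ring, had 4.18, 4.57 and 1.10 FPKM with vagotomy, 4.27, 6.01 and 5.84 FPKM after resection, and 7.78, 15.1 and 12.9 FPKM after sham surgery. No operated library reached the sham range, and Anln fell with vagotomy (-1.67 ± 0.39, adjusted p = 0.0282). Ect2, the exchange factor that activates RhoA at the division plane, had 1.39, 1.85 and 4.72 FPKM with vagotomy, 2.22, 5.92 and 4.22 FPKM after resection, and 5.43, 10.7 and 13.7 FPKM after sham surgery. The resected group reached into the sham range, the vagotomy group did not, and Ect2 fell with vagotomy (-1.61 ± 0.43 against sham, adjusted p = 0.043). Kif4, a motor of chromosomes and central spindle, had 0.896, 1.4998 and 0.218 FPKM with vagotomy, 1.45, 1.12 and 1.49 FPKM after resection, and 2.56, 4.25 and 4.21 FPKM after sham surgery. Sham libraries were the 3 highest, and the change with vagotomy was -1.36 ± 0.32 (adjusted p = 0.0285). Of the kinesins Kif20a, Kif20b and Kif23, none passed, with changes of -1.01 to -0.48 with vagotomy against sham and -0.85 to -0.76 after resection.

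**Figure D4:**
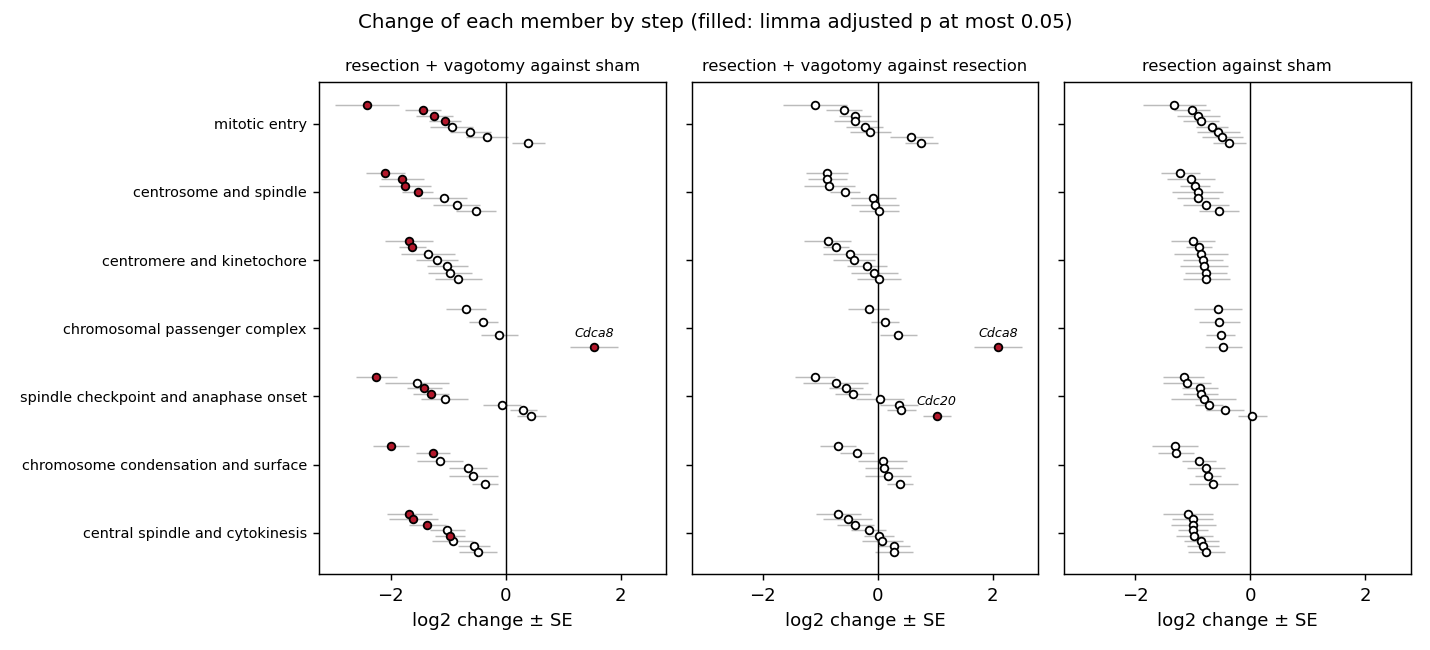
Log2 change ± SE of each member (points), grouped by step, in the 3 comparisons; filled points had a limma adjusted p of at most 0.05. All filled points left of 0 are with vagotomy against sham, and Cdca8 and Cdc20 are the filled points right of 0.

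Adding vagotomy to resection did not move the members in 1 direction. Against resection alone, 29 members had lower and 19 had higher means, with a median log2 change of -0.16, against 0.02 over all tested genes. By limma 0 members fell and 2 rose, Cdca8 and Cdc20, against 1.55% and 1.97% of all tested genes. At an unadjusted p below 0.05, 4 members were lower and 3 higher, against 11.1% and 13.1% of tested genes. All vagotomy libraries lay below all resected libraries in 8 members (12.2% of tested genes) and above them in 4 (14.0%). The authors' deposited table called Bub1 and Kif11 lower and Cdca8 higher, against 8.56% and 8.52% of the 14083 genes tested there. For Bub1 and Kif11 the limma changes were -1.09 ± 0.36 (adjusted p = 0.104) and -0.88 ± 0.34 (adjusted p = 0.15). The third vagotomy library weighed on the median: the members lay at a median of -1.496 on the log2 scale from the sham means, against -0.99 and -0.58 in the other vagotomy libraries. In the resected libraries that median was -0.95, -0.93 and -0.70, and in the sham libraries -0.31, 0.31 and -0.01. Without the third vagotomy library the median change against resection was 0.07.

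Genes of the same pathway outside the 48 were also lower. Of 107 other mitosis genes in the matrix, 105 were tested. After resection 93 of these had lower means, with a median log2 change of -0.59, and limma called 0, with 38 lower and 0 higher at an unadjusted p below 0.05 (2.21% and 3.68% of all tested genes). The authors' deposited table called 43 of the 107 lower and 0 higher, against 1.93% and 4.18% of the 14011 genes tested there. With vagotomy against sham 23 fell and 0 rose, at a median of -0.65, against 4.26% and 5.81% of all tested genes. Against resection 1 gene, Rad21 of cohesin, fell and 0 rose, where 1.55% and 1.97% of all tested genes did. Among the 4 with the smallest p after resection was Shcbp1, a partner of centralspindlin, at 1.94 ± 0.40 FPKM with vagotomy, 2.95 ± 0.47 FPKM after resection and 7.62 ± 2.34 FPKM after sham surgery (SD, n = 3 each). The kinetochore genes Kntc1 and Ska3 stood at 1.70 and 1.28 FPKM with vagotomy, 1.83 and 1.45 FPKM after resection, and 5.07 and 4.16 FPKM after sham surgery.

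Of 39 DNA replication and S phase genes, all had lower means after resection, with a median log2 change of -0.75. With vagotomy against sham 12 fell and 1 rose by limma, against 4.26% and 5.81% of all tested genes. After resection the authors' deposited table called 15 lower, against 1.93% of the genes tested there. By limma 1 fell after resection, against 0.00755% of all tested genes. The 1 gene was Uhrf1, which keeps up DNA methylation at replication, at 11.4 ± 2.42 FPKM with vagotomy, 7.50 ± 2.00 FPKM after resection and 22.8 ± 2.59 FPKM after sham surgery (SD, n = 3 each; limma adjusted p = 0.0488 after resection). Rrm2, the ribonucleotide reductase subunit that supplies DNA building blocks, averaged 15.9 ± 4.26 FPKM with vagotomy, 18.7 ± 0.83 FPKM after resection and 60.01 ± 15.8 FPKM after sham surgery, and did not pass after resection (limma adjusted p = 0.0547). Of 13 G1 cyclins, kinases and E2F genes, 0 were called after resection. With vagotomy against sham 1, Ccne2, fell and 0 rose, against 4.26% and 5.81% of all tested genes. Against resection 10 had higher means with vagotomy, none past the threshold, as had 6834 of the 13249 tested genes. Ccne2, cyclin E2, averaged 1.34 ± 0.46 FPKM with vagotomy, 5.63 ± 2.90 FPKM after resection and 14.04 ± 5.78 FPKM after sham surgery. E2f1, an activator of S phase genes, averaged 7.36 ± 2.27 FPKM with vagotomy, 2.35 ± 1.29 FPKM after resection and 6.57 ± 1.95 FPKM after sham surgery.

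Summed markers of monocytes and macrophages and of neutrophils were higher than sham in both operated groups, where most members were lower. Of 15 monocyte and macrophage markers listed, 14 were in the matrix. They summed to 325 to 348 FPKM with vagotomy, 198 to 350 FPKM after resection and 63.3 to 89.6 FPKM after sham surgery. Against sham, limma called 7 of the 14 higher with vagotomy, where 5.81% of all tested genes were. After resection it called 3 higher, where 0.287% of all tested genes were. Neutrophil markers summed to 118 to 335 FPKM with vagotomy, 214 to 306 FPKM after resection and 20.8 to 45.1 FPKM after sham surgery. Limma called 4 of 8 tested higher with vagotomy and 1 after resection, both against sham (5.81% and 0.287% of all tested genes). With vagotomy against resection, 4 of the 8 had lower and 4 had higher means. There S100a8 fell, from 165 to 42.8 FPKM (log2 change -1.94 ± 0.39, limma adjusted p = 0.0344). S100a9 averaged 45.4 FPKM after resection and 140 FPKM with vagotomy (1.49 ± 0.51, limma adjusted p = 0.119). None of these markers was at 0 in any library. The 9 fibroblast markers summed to 1582 to 1893 FPKM with vagotomy, 1573 to 2114 FPKM after resection and 1810 to 2474 FPKM after sham surgery, and 0 were called against sham. The 9 endothelial markers summed to 922 to 1633 FPKM with vagotomy, 703 to 1119 FPKM after resection and 637 to 914 FPKM after sham surgery. Of these 1 fell with vagotomy against sham, as did 4.26% of all tested genes. Erythroid markers, 7 of 10 listed, summed to 289 to 655 FPKM with vagotomy, 873 to 4312 FPKM after resection and 514 to 1379 FPKM after sham surgery. The 12 cardiomyocyte markers, all present after sham surgery and resection, summed to 19215 to 42006 FPKM with vagotomy, 15507 to 25892 FPKM after resection and 22821 to 25723 FPKM after sham surgery, and 0 were called after resection. With vagotomy, Myh6 and Actc1 were at 0 in all 3 libraries, and Myl3, a heart myosin light chain, had 6514, 5818 and 10656 FPKM, against 1432, 423 and 838 FPKM after resection and 1680, 1150 and 804 FPKM after sham surgery. The part of these cells, or of how the vagotomy libraries were quantified, in the members' values was not tested.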

How the data were processed

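RNA-seq was made from the ventricle of 9 samples, 3 per group. Per the labels, RNA was extracted with Trizol and sequenced on an Illumina HiSeq instrument. Per the submitters' processing notes, TopHat2 2.0.9, Cufflinks 2.1.1 and Cuffdiff 2.1.1 were used with GRCm38. The authors deposited an FPKM matrix with 1 added to every value, which was subtracted here, and Cuffdiff tables of resection against sham and of resection with vagotomy against resection, with the authors' FPKM, p-values and q-values. Read counts were not used here, so the depth behind each value is unknown and no counting interval is given.

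Values were tested as log2(FPKM + 1) with limma 3.58.1 (R 4.3.3), with all 9 libraries, 1 mean per group, a mean-variance trend and two-sided p-values adjusted by Benjamini and Hochberg over the 13249 genes that averaged 1 FPKM or more; the threshold was 0.05. All 48 members passed that filter. A log2 change on this scale understates the change of low genes. An exact permutation test of 3 against 3 libraries cannot go below p = 0.1 and was not used. Cufflinks shares reads between overlapping genes: 27 members had a deposited locus of their own and 21 shared one, 11 of them with another gene of the matrix.

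Members and lists were chosen with earlier results of these data known. Values are given for the members with the highest mean and the smallest resection p of each step, those past a threshold in any test and 12 chosen for the question; from other lists, at most 4 genes with the smallest resection p. The heart markers and locus partners named beside results, and genes named for a count of 5 or fewer, were chosen after their values were seen. Alternatives covered the pseudocount, the filter, scaling, moderation, library weights, the replicate number as a block, the libraries fitted, and each library left out. Promoter letters were searched in RefSeq windows of GRCm38.p6.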

Additional observations from a re-analysis of the deposited data

How the results depend on the processing

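For resection against sham, limma called 0 members under each alternative except library weights. Those called 19, all lower, and 417 of the 13249 tested genes in either direction, against 39 in the main fit. The authors' Cuffdiff table called 34, and 21 of the 27 members with a locus of their own, a set chosen after seeing the data. The median change stayed negative, at -1.03 to -0.69 with each library left out in turn. For resection with vagotomy against resection, 1 member was called with pseudocount 5, no filter, quantile, upper-quartile or median scaling, or moderation without trend. Under these settings 411 to 535 of all tested genes were called, against 466 in the main fit. With only the 6 libraries compared 0 members were called, where 29 of all tested genes were. With each library left out in turn 0 to 1 members were called, where 42 to 591 of all tested genes were. All calls of members were higher. Members with a locus of their own gave 0. That set leaves out Cdca8 and Cdc20, which share theirs with another gene, so it could not call them. The median change ranged from -0.40 to 0.07 over the libraries left out, positive only without vagotomy replicate 3. For resection with vagotomy against sham, library weights called 37 members, and 6389 of the 13249 tested genes, against 1334 in the main fit. Among the 27 members with a locus of their own 10 were called, as many of them as in the main fit. With each library left out in turn 1 to 20 members were called. It was 10 without vagotomy replicate 1 (598 of all tested genes), 13 without vagotomy replicate 2 (640) and 11 without vagotomy replicate 3 (533). Without sham replicate 2 it was 1 (100 of all tested genes), and without sham replicate 3 also 1 (119). The median change stayed negative, at -0.62 with pseudocount 5 and -1.30 to -0.79 over the libraries left out. Among the 3 groups, 42 members were called with library weights, and how many of all tested genes were called so is not given. Of the members with a locus of their own 5 were called, as many of them as in the main fit. With each library left out in turn 0 to 10 members were called. The locus setting counts only 27 of the 48 members. Where another setting moved a count, the cause was not tested.

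The sample titles number the libraries alike in the 3 groups, but the library codes in the labels share a number only for the first and second of each group, and nothing says what a number marks. Deviations of same-numbered libraries from their group means correlated at 0.14 to 0.50 for the first and second libraries and at -0.02 to 0.12 for the third, and those of other pairs at -0.45 to 0.34. All 3 pairs between vagotomy and resection exceeded 0.1, and not all pairs with sham did, so the fit without the block was kept. With the replicate block, 0 members were called for resection against sham, where 55 of all tested genes were. For resection with vagotomy against resection 2 were called, Cdca8 and Cdc20 as without the block, where 1277 of all tested genes were. For resection with vagotomy against sham 24 were called, where 2413 of all tested genes were. Among the 3 groups 17 members were called, and how many of all tested genes were called so is not given.

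Of 1412 values of named members under alternatives, 1279 kept direction and side of the threshold, 106 lost the call, 22 gained one and 5 turned sign. Bub3 after resection was at -0.16 with library weights and ranged from -0.16 to 0.20 with each library left out in turn, negative without resection replicate 1 (-0.16) and without sham replicate 3 (-0.02). Birc5 with vagotomy against sham ranged from -0.24 to 0.06 with each library left out in turn, positive without vagotomy replicate 3 (0.057) or sham replicate 2 (0.062). Depth is unknown, so the precision of low values such as those of Bub1 and Kif4 could not be given.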
